A study of Mus musculus with 22 samples.

Results

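The libraries described here are the 5 P48Cre/+ pancreas libraries made after caerulein, 3 from Ehmt2fl/fl and 2 from Ehmt2+/+ mice, out of 22 libraries in the series. They were chosen by their driver and treatment labels alone. Ehmt2 encodes G9a, the enzyme that places mono- and dimethyl marks on lysine 9 of histone H3. Both groups carried P48Cre/+, a Cre inserted at the Ptf1a locus and active in pancreatic progenitors and acinar cells, and differed in whether the 2 copies of Ehmt2 were floxed or intact. All 5 mice were on a C57Bl/6 background, 4 weeks old, and received 8 hourly injections of caerulein at 50 µg/kg after a 12 h fast. Whole pancreas was taken 18 h after the first injection, and each library is 1 animal, so that p-values measure the spread between these animals. The series holds no untreated P48Cre/+ library, so every value below is a difference between genotypes within acute pancreatitis. Whether a difference was already present before caerulein cannot be told from these libraries. The other caerulein libraries of the series, 4 Ehmt2+/+ and 2 Ehmt2fl/fl with Pdx1-Cre, serve as a comparison at the end.

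Caerulein is an analog of cholecystokinin. At high doses it overstimulates the acinar cell through the receptor Cckar, digestive zymogens are activated inside the cell, and an inflammatory infiltrate of monocytes, macrophages and neutrophils follows. Injured acinar cells lower the enzymes and transcription factors of the acinar program, such as Ptf1a, Rbpjl, Nr5a2 and Bhlha15, and take on duct-like features, a reversible change called acinar-to-ductal metaplasia. H3K9 dimethylation is a mark of repressed chromatin. The genotype comparison asks how the pancreas after this injury differs when the main writer of the mark is targeted in the epithelium.

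The libraries held 24980452 to 30471154 counts each, over 14752 genes. Levels are given as CPM, counts per 1000000 counts of a library, after TMM scaling, which corrects library totals for a few very abundant RNAs. A gene passed when its edgeR quasi-likelihood p, adjusted over all genes by the Benjamini-Hochberg method, was under 0.1 and its log2 difference was at least 1 in size. Log2 differences are Ehmt2fl/fl minus Ehmt2+/+, with their standard error (SE).

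Some library traits moved with the genotype or set 1 library apart. Rows that overlap the ribosomal RNA gene on chromosome 17 (39846353 to 39848827, GRCm38) took 35.6 and 33.0% of all counts in Ehmt2+/+ mice but 15.8, 14.3 and 18.2% in Ehmt2fl/fl mice, with no overlap between the genotypes. With Pdx1-Cre, over the genes in both tables, the genotypes overlapped in this share. It was 32.1, 24.3, 22.4 and 39.6% in Ehmt2+/+ mice and 19.2 and 24.7% in Ehmt2fl/fl mice. The part of the ribosomal rows in the genotype differences was not tested beyond the fits given here. These rows, CT010467.1, Gm42418 and AY036118, overlap one another and count many of the same reads. They are 3 of the genes that passed as lower. With them left out, 488 genes passed, all of them among the 497 of the full table. Ehmt2fl/fl mouse 3 stood apart. Its rank correlation with the other 4 libraries was 0.696 to 0.878, against 0.962 between the other Ehmt2fl/fl mice and 0.916 between the Ehmt2+/+ mice. For a length balance, the log2 level of each gene was set against its mean over the 5 libraries. The median for genes of at least 6907 bases, minus that for genes of at most 2706 bases, was -0.54 in Ehmt2fl/fl mouse 3. The other 4 libraries ranged from -0.04 to 0.34. Ehmt2fl/fl mouse 3 also held hardly any lymphocyte RNA. The 12 B and plasma cell genes summed to 6.62 CPM there and to 315 to 769 CPM in the other 4 libraries. Low levels also occurred with Pdx1-Cre, in both genotypes. The B cell gene Cd79a was at 3.59 and 0.146 CPM in Pdx1-Cre Ehmt2+/+ mice 2 and 3, and at 0.282 CPM in Pdx1-Cre Ehmt2fl/fl mouse 1. It was at 28.5 to 45.8 CPM in the other Pdx1-Cre caerulein libraries. Ehmt2+/+ mouse 2 had the highest fat cell signal, 297 CPM over 10 adipocyte genes against 59.5 to 81.1 CPM elsewhere. By Xist and Y-linked genes, 1 of 2 Ehmt2+/+ and 2 of 3 Ehmt2fl/fl mice were male.

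**Figure D1:**
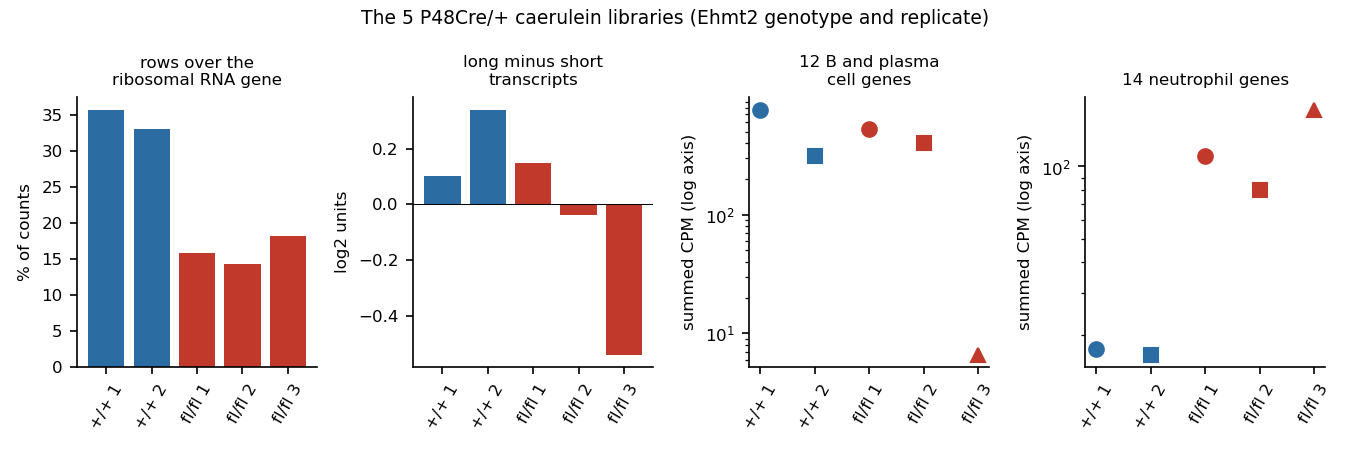
Measures of library composition in each of the 5 P48Cre/+ caerulein libraries, with Ehmt2+/+ in blue and Ehmt2fl/fl in red. The first panels show the percent of counts in rows over the ribosomal RNA gene and the log2 length balance. That balance sets long against short genes (panel title: transcripts), each relative to its mean over the 5 libraries. The other panels show the summed CPM of 12 B and plasma cell genes and of 14 neutrophil genes (log axes). The ribosomal share is 35.6 and 33.0% in Ehmt2+/+ and 14.3 to 18.2% in Ehmt2fl/fl, Ehmt2fl/fl mouse 3 is lowest in the length balance (-0.54) and in B cell genes (6.62 CPM), and the neutrophil sum lies at 16.6 to 17.6 CPM in Ehmt2+/+, below the 80.0 to 172 CPM of Ehmt2fl/fl.

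The targeted gene was read first. Ehmt2 (ENSMUSG00000013787.15, chromosome 17, 34898469 to 34914052) was at 51.0 and 70.3 CPM in Ehmt2+/+ and at 57.1, 51.6 and 34.4 CPM in Ehmt2fl/fl. The groups overlapped, and the log2 difference of -0.35 ± 0.28 did not pass (adjusted p = 0.638). Counts per gene do not show the loss of single exons, and whole pancreas holds cells in which this Cre is not active, so the values do not check the deletion. Ehmt1, which encodes GLP, the partner of G9a in the same complex, was at 9.71 and 13.1 CPM against 11.6, 9.98 and 6.00 CPM (log2 -0.31 ± 0.33). None of the 18 H3K9 methyltransferase, demethylase and reader genes tested passed by edgeR or by DESeq2. By edgeR 3 of them had an unadjusted p under 0.05, as did 15% of all genes (2217 of 14752). The median log2 difference of the 18 was -0.30, where the median of all genes was 0.02. Without Ehmt2fl/fl mouse 3 the median of these 18 genes was -0.11, and with Pdx1-Cre it was 0.02.

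Of 14752 genes, 365 (2.47%) were higher and 132 (0.895%) were lower in Ehmt2fl/fl, 497 (3.37%) in all. The size of this set changed when a library was left out. It was 0 by edgeR without Ehmt2+/+ mouse 1 or mouse 2 (1849 and 1277 genes at an unadjusted p under 0.05), fits that leave 1 animal in that group, assumed to vary like the Ehmt2fl/fl mice. It was 1 without Ehmt2fl/fl mouse 2. It was 162 without Ehmt2fl/fl mouse 1 and 1023 without mouse 3 (650 higher, 4.41%, and 373 lower, 2.53%). In each of these fits all 497 genes kept their direction, which their choice on these same libraries made likely beforehand. When both drivers were fitted together, so that 11 libraries shared 1 estimate of the spread, 844 of 14433 genes passed (562 higher, 3.89%, and 282 lower, 1.95%), and 85 to 881 passed when each of the 11 libraries was left out in turn. DESeq2 called 661 higher (4.48%) and 359 lower (2.43%). With the sex of the animals as a covariate none passed by edgeR, and 1694 had an unadjusted p under 0.05.

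**Figure D2:**
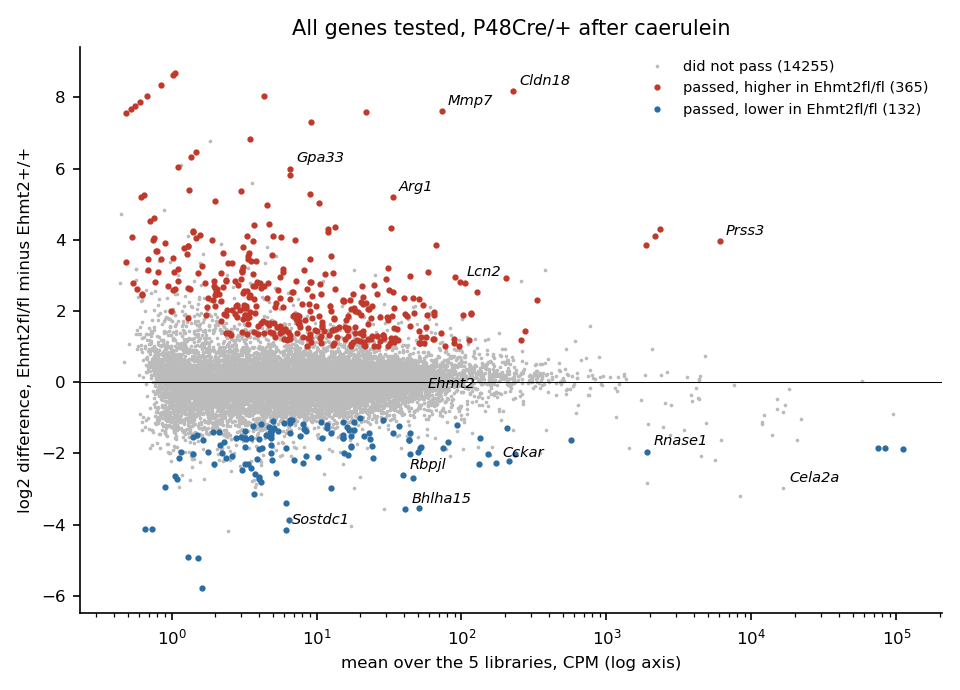
Each point is 1 of the 14752 genes tested in the 5 P48Cre/+ caerulein libraries, placed by its mean level (CPM, log axis) and its log2 difference between genotypes. Red points (365) passed as higher and blue points (132) passed as lower in Ehmt2fl/fl. Cldn18 lies at 8.16 and Sostdc1 at -4.17, Ehmt2 lies among the genes that did not pass, and the 3 blue points at the far right are the ribosomal RNA rows.

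Cldn18 had the largest rise among genes with a mean of at least 5 CPM over the 5 libraries and no overlap between the groups. This claudin, normally part of tight junctions in stomach and lung, was at 1.24 and 1.39 CPM in Ehmt2+/+ and at 449, 391 and 292 CPM in Ehmt2fl/fl. Its log2 difference was 8.16 ± 0.37, with the lowest adjusted p of all genes (0.00948). The matrix metalloproteinase Mmp7, which cleaves matrix and cell-surface proteins, went from 0.441 and 0.794 CPM to 67.7, 84.0 and 212 CPM (log2 7.62 ± 0.81). For both, each of the 3 Ehmt2fl/fl mice was far above either Ehmt2+/+ mouse. Other genes with a restricted epithelial expression followed. Gpa33, a surface antigen of gut epithelium, was at 0.0883 and 0.248 CPM against 17.2, 9.0 and 6.17 CPM. Cblif, the gastric intrinsic factor that carries vitamin B12, was at 0.0883 and 0.298 CPM against 20.8, 8.40 and 3.12 CPM. Sftpd, which encodes the lung collectin surfactant protein D, was at 0.486 and 0.546 CPM against 12.8, 12.5 and 25.9 CPM. The tetraspanin Tspan8 was at 2.65 and 2.58 CPM against 43.9, 40.5 and 72.6 CPM. Each of these genes was higher in every Ehmt2fl/fl mouse than in either Ehmt2+/+ mouse, which their choice required.

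The rest of the 12 largest rises were a co-regulator, secreted plasma proteins and myeloid genes. Ankrd1, a stress-induced ankyrin repeat protein known as a target of YAP, rose by 5.28 ± 0.43, and Proc, the anticoagulant protein C, rose by 4.20 ± 0.25. Ptx3, a pentraxin that binds microbes and complement, rose by 4.10 ± 0.34. Arg1, arginase of alternatively activated macrophages, was at 2.30 and 0.695 CPM in Ehmt2+/+ and at 29.3, 28.4 and 108 CPM in Ehmt2fl/fl. S100a8 and S100a9, the subunits of calprotectin, rose by 4.30 ± 0.60 and 4.35 ± 0.56. Arg1, S100a8 and S100a9 were highest in Ehmt2fl/fl mouse 3. Of the genes that passed, 200 rises and 66 falls met the same limits on level and overlap.

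The 12 largest falls included 3 genes of the acinar identity list, Bhlha15, Rbpjl and Cckar. Sostdc1, whose product is secreted and blocks BMP and Wnt ligands, had the largest fall, from 11.7 and 16.5 CPM to 0.310, 1.05 and 1.03 CPM (log2 -4.17 ± 0.53). Bhlha15, also called Mist1, the basic helix-loop-helix factor that builds the secretory apparatus, fell from 57.4 and 124 CPM to 6.11, 9.47 and 7.47 CPM (log2 -3.56 ± 0.39). Rbpjl, the acinar subunit of the PTF1 complex, fell from 62.3 and 97.1 CPM to 8.33, 15.2 and 15.5 CPM (log2 -2.61 ± 0.35). Cckar, the receptor that caerulein binds, fell from 247 and 416 CPM to 43.8, 74.6 and 87.3 CPM (log2 -2.27 ± 0.37). All 3 Ehmt2fl/fl mice lay below both Ehmt2+/+ mice for each of these genes, which their choice required. Slc30a2, a zinc transporter, fell by 2.98 ± 0.24 on the log2 scale, and Anpep, aminopeptidase N, by 2.31 ± 0.43. The kinase gene Brsk2 fell by 3.88 ± 0.34, Tent5c, a poly(A) polymerase of secretory cells, by 2.68 ± 0.25, and Cldn10, a claudin that forms ion-selective pores, by 2.18 ± 0.33. Cyp4b1, a cytochrome P450, fell by 2.55 ± 0.51 and the long noncoding RNA Malat1 by 2.21 ± 0.39. Eno1b fell by 3.41 ± 0.28, and since it closely resembles Eno1 its counts are uncertain.

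**Figure D3:**
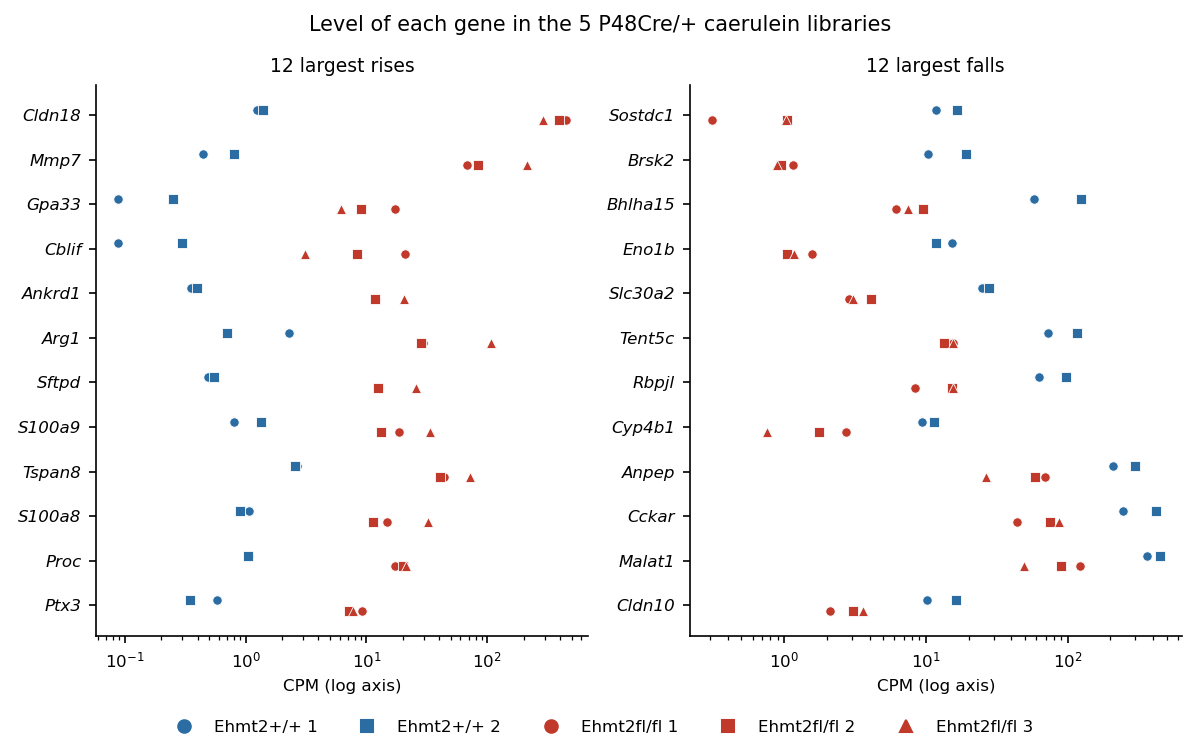
CPM (log axis) of the 12 genes with the largest rises and the 12 with the largest falls, 1 point per library, with Ehmt2+/+ in blue and Ehmt2fl/fl in red and a marker shape for each replicate number. Red and blue points do not overlap for any of the 24 genes, which the choice of these genes required. Cldn18 goes from 1.24 and 1.39 CPM to between 292 and 449 CPM.

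The acinar lists were chosen from what these cells make. For the counts in this and each later list, the shares over all genes were 2.47% higher and 0.895% lower. The share of all genes with an unadjusted p under 0.05 by edgeR was 15%. Of 26 acinar identity and secretion genes, 5 fell (Bhlha15, Nr5a2, Rbpjl, Gatm and Cckar) and 1 rose (Sctr), with a median log2 difference of -0.38. Nr5a2, a nuclear receptor that maintains acinar genes, was at 71.9 and 73.7 CPM in Ehmt2+/+ and at 20.3, 23.3 and 26.7 CPM in Ehmt2fl/fl (log2 -1.63 ± 0.19, adjusted p = 0.0444). Gatm, the first enzyme of creatine synthesis, fell by 1.83 ± 0.25 on the log2 scale. Ptf1a, the defining factor of the acinar lineage, was at 18.8 and 22.9 CPM against 17.1, 16.5 and 16.3 CPM, and its log2 difference of -0.33 ± 0.18 did not pass (adjusted p = 0.481). One Ptf1a allele carries the Cre insertion in all 5 animals. Sctr, the secretin receptor, which duct cells use most, went from 0.618 and 0.695 CPM to 2.75, 2.53 and 3.39 CPM.

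All 31 digestive enzyme and cofactor genes were tested. After TMM scaling their sum was 448096 and 530010 CPM in Ehmt2+/+, against 224593, 289659 and 334286 CPM in Ehmt2fl/fl. As a share of all counts they took 33.4 and 36.9% against 30.9, 36.6 and 37.1%, so the groups overlapped. With ribosomal RNA rows left out the shares were 51.9 and 55.1% against 36.7, 42.7 and 45.3%. The median log2 difference of the 31 genes was -0.65. For 18 of the 31, every Ehmt2fl/fl mouse was below both Ehmt2+/+ mice (14.8% of all genes did so). Only Pla2g1b and Rnase1 passed as lower. Pla2g1b, secreted phospholipase A2, was at 917 and 1005 CPM against 291, 390 and 260 CPM (log2 -1.61 ± 0.25). Rnase1, pancreatic ribonuclease, was at 2935 and 3941 CPM against 534, 906 and 1224 CPM (log2 -1.95 ± 0.40). The elastase Cela2a and chymotrypsin C, encoded by Ctrc, had larger differences with a wider spread among the Ehmt2fl/fl mice. Cela2a was at 35447 and 33838 CPM against 1448, 3782 and 8006 CPM (log2 -2.97 ± 0.70, adjusted p = 0.123). Ctrc was at 20055 and 15960 CPM against 603, 1675 and 3564 CPM (log2 -3.21 ± 0.73, adjusted p = 0.114). Ehmt2fl/fl mouse 3 was the highest of its group for both, and without it 11 of the 31 fell and 3 rose. On library totals the list's median turned to 0.13, which was 0.69 below the median of all genes, since that scaling moved all genes up by a median of 0.82.

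Trypsinogen genes went in the opposite direction to most enzymes. Prss3 was at 474 and 765 CPM in Ehmt2+/+ and at 10392, 9326 and 9236 CPM in Ehmt2fl/fl (log2 3.96 ± 0.37, adjusted p = 0.0269). Prss1, cationic trypsinogen, was at 169 and 243 CPM against 4009, 2622 and 2286 CPM (log2 3.85 ± 0.41). The groups were far apart for both. Trypsinogen genes are near-identical copies in 1 cluster, so how reads were divided among them is uncertain. The Reg genes, secreted lectins of the injured pancreas, did not pass (0 of 6, median -1.24, 2 at an unadjusted p under 0.05, 2 lower by DESeq2). Reg2 was at 8443 and 12521 CPM against 2578, 3575 and 747 CPM (log2 -2.19 ± 0.65, adjusted p = 0.192).

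Duct and metaplasia genes were split. Of 24 tested, 9 rose and 0 fell, with a median of 0.82. Besides Cldn18, Lcn2, a siderophore-binding protein of injured epithelium and neutrophils, went from 18.3 and 24.2 CPM to 120, 141 and 184 CPM (log2 2.80 ± 0.29). The tight junction gene Cldn4 went from 87.9 and 107 CPM to 539, 565 and 347 CPM (log2 2.31 ± 0.31), and Cldn2, a pore-forming claudin, rose by 3.53 ± 0.53. Krt7, a duct keratin, rose by 1.63 ± 0.25 and Cftr, the duct chloride channel, by 1.60 ± 0.28. The duct markers did not all move. Krt19, the usual marker of metaplastic ducts, was at 279 and 337 CPM against 341, 326 and 259 CPM (log2 0.00 ± 0.22). The mucin gene Muc1 was at 195 and 259 CPM against 79.4, 77.6 and 34.7 CPM (log2 -1.83 ± 0.39, adjusted p = 0.104), and Tff2, a trefoil peptide, had a log2 difference of -1.35 ± 0.42 (adjusted p = 0.205). Without Ehmt2fl/fl mouse 3, 9 rose and 2 fell. Among 17 claudins and keratins, 7 rose and 1, Cldn10, fell (median 1.14). Krt17, a keratin of basal and wounded epithelium, went from 1.10 and 0.298 CPM to 9.89, 10.7 and 13.3 CPM, and Krt20, of gastrointestinal epithelium, rose by 1.89 ± 0.29. Of 13 intestinal genes listed, 2 had enough counts to be tested. They were near 0 in Ehmt2+/+ and entered through their level in Ehmt2fl/fl. The cadherin Cdh17 and villin Vil1 rose by 3.63 ± 0.51 and 2.65 ± 0.55. Their highest levels were 6.18 and 4.20 CPM.

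**Figure D4:**
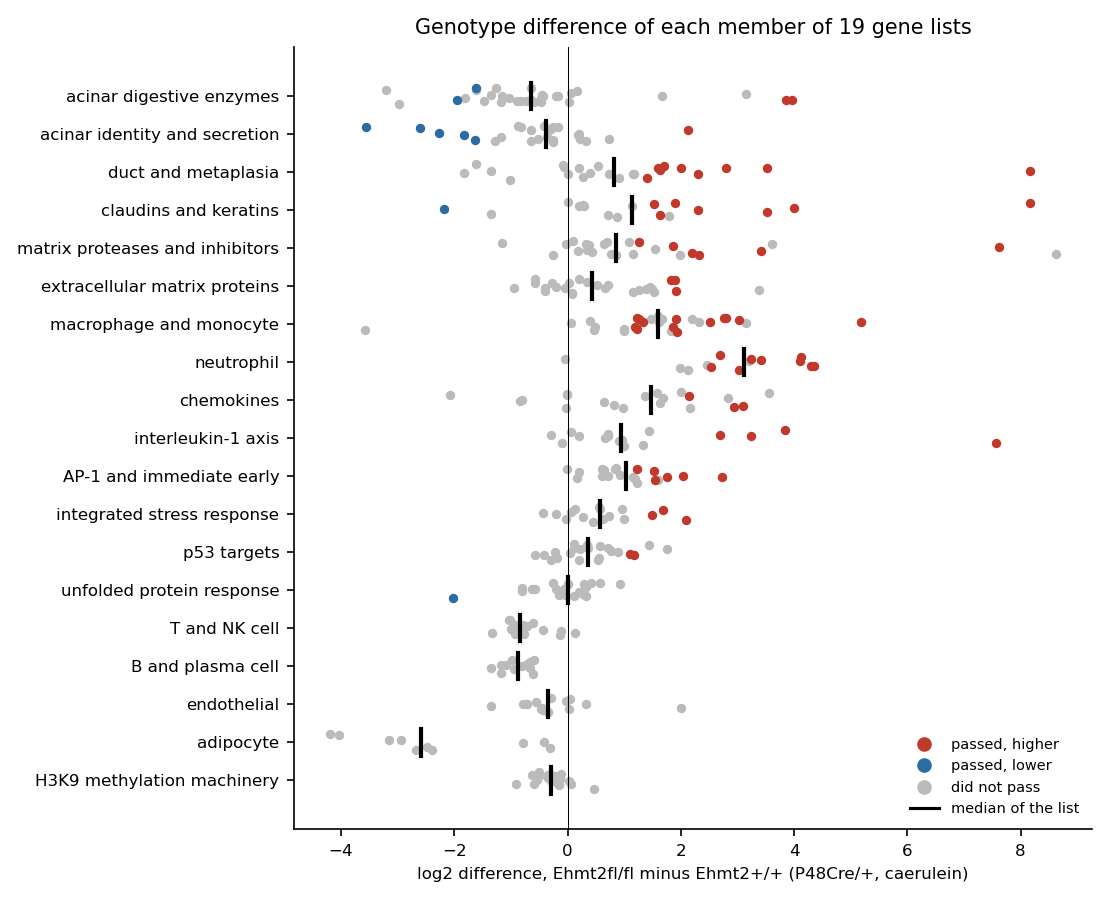
Each point is a gene of 1 of 19 lists, placed by its log2 difference between genotypes in the P48Cre/+ caerulein libraries, with the median of the list as a black line. Red points passed as higher, blue points passed as lower and grey points did not pass. The neutrophil median lies at 3.12, the macrophage median at 1.61 and the digestive enzyme median at -0.65. The H3K9 methylation median lies at -0.30, and was -0.11 without Ehmt2fl/fl mouse 3.

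Some proteases, inhibitors and adhesion genes rose, and most of those listed did not pass. Of 25 matrix protease and inhibitor genes, 6 rose and 0 fell, with a median of 0.85, while their summed level overlapped between the groups (3665 and 4444 CPM against 2685, 3015 and 3833 CPM). Timp1, an inhibitor of metalloproteinases, went from 17 and 12.9 CPM to 52.5, 67.0 and 105 CPM (log2 2.32 ± 0.37). The plasminogen system was represented by Plaur, the urokinase receptor, at 4.59 and 3.43 CPM against 13.0, 11.5 and 19.2 CPM. The plasminogen activator Plat rose by 1.26 ± 0.21. Mmp8, the neutrophil collagenase, rose by 3.41 ± 0.67. Mmp13, a collagenase, had 0 counts in both Ehmt2+/+ libraries and 158 counts in the Ehmt2fl/fl libraries, at 0.501, 0.982 and 3.63 CPM. That was at least 22.0-fold higher, taking 3 counts over the Ehmt2+/+ group as the floor, but the gene did not pass (adjusted p = 0.167). Mmp13 entered the test only through its level in Ehmt2fl/fl. Mmp10, stromelysin 2, was at 0.309 and 0.0993 CPM against 0.645, 1.39 and 5.76 CPM (adjusted p = 0.251). For both, Ehmt2fl/fl mouse 3 held the highest value. Of 18 integrin, Cd44 and linker genes 2 rose. Itga2, the collagen-binding integrin subunit, went from 2.12 and 1.84 CPM to 12.9, 16.2 and 12.6 CPM (log2 2.81 ± 0.25), and Cd44, the hyaluronan receptor, rose by 1.38 ± 0.25. Of 26 extracellular matrix genes 3 rose and 0 fell, among them Vcan (1.92 ± 0.20), which encodes versican, and Thbs1 (1.89 ± 0.32), which encodes thrombospondin 1.

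Promoters of the protease genes are shown because AP-1, the Fos and Jun dimer that drives many injury genes, binds the letters TGANTCA, and this element is known from metalloproteinase promoters. The sequences are from RefSeq (GRCm38.p6), from 100 bases before to 20 after the start site, with the match in capitals.
Mmp7 (chr9:7691990-7692109, plus strand): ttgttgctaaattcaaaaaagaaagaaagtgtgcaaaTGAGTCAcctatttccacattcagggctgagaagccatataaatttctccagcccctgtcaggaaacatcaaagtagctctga
Mmp10 (chr9:7502242-7502361, plus strand): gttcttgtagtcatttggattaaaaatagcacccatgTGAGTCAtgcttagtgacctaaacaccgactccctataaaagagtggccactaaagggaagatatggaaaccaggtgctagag
Mmp13 (chr9:7272414-7272533, plus strand): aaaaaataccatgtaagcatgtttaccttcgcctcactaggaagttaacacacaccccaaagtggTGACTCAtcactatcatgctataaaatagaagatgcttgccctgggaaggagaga
Plaur (chr7:24462383-24462502, plus strand): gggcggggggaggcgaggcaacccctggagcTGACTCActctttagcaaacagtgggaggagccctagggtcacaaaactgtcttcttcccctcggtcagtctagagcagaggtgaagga
The match began 63, 63, 35 and 69 bases before the start site. The promoters shown are ones with a match. Mmp7 and Plaur passed as higher, while Mmp10 and Mmp13 did not pass. Of the proteases and inhibitors that rose, 4 had promoter entries, and 2 of their 5 promoters held the motif. The motif reads the same on both strands. Over 250 bases before to 50 after a start site, it was in 7.81% of all 32851 RefSeq promoters, in 5.51% of the promoters of genes tested, in 16.4% of 311 promoters of genes that rose and in 6.50% of 123 promoters of genes that fell. Among the largest changes it was in 1 of 11 promoters of rises and 1 of 10 of falls. A match is a run of letters, and binding was not measured.

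For the falls the E-box CAGCTG was searched, a site bound by basic helix-loop-helix factors such as Bhlha15, and the promoters of Brsk2 and Tent5c are shown from 150 bases before to 50 after the start site.
Brsk2 (chr7:141949601-141949800, plus strand): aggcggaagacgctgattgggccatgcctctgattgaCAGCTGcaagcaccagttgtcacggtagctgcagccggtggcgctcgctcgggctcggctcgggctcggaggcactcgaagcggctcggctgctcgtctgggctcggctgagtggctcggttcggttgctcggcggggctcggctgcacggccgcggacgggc
Tent5c (chr3:100489143-100489342, minus strand): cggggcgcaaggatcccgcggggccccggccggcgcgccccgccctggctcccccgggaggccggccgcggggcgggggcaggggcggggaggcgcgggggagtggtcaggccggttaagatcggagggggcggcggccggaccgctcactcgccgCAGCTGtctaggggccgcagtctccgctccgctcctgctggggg
In Brsk2 the match began 113 bases before the start site, and in Tent5c at base 7 of the transcript. The motif, which also reads the same on both strands, was in 16.3% of all promoters, in 15.5% of those of genes tested, in 26.8% of the promoters of genes that fell and in 18.6% of those of genes that rose.

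Many myeloid genes rose. Of 28 macrophage and monocyte genes, 13 rose and 0 fell, with a median of 1.61. In whole tissue more cells of a type and more RNA per cell cannot be told apart. Ccr2, the receptor that brings monocytes from blood, went from 26.6 and 20 CPM to 101, 130 and 254 CPM (log2 2.80 ± 0.48). Itgam, the CD11b integrin, went from 16.7 and 18.5 CPM to 85.3, 61.6 and 54.0 CPM (log2 1.93 ± 0.27). Adgre1, the F4/80 antigen, rose by 1.34 ± 0.24, the lysosomal Cd68 by 1.23 ± 0.23, complement C1qb by 1.20 ± 0.20 and Cd14, the co-receptor for lipopolysaccharide, by 1.26 ± 0.21. These genes were raised in all 3 Ehmt2fl/fl mice. Marco, a scavenger receptor of lymphoid and resident macrophages, was at 71.7 and 57.9 CPM against 9.12, 7.03 and 0.0686 CPM (log2 -3.57 ± 1.26, adjusted p = 0.264). The sum of the 28 genes was 1269 and 873 CPM in Ehmt2+/+, against 2430, 2280 and 4508 CPM in Ehmt2fl/fl.

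Of 14 neutrophil genes 9 rose and 0 fell (median 3.12), and their sum was 17.6 and 16.6 CPM against 111, 80.0 and 172 CPM. Hdc, histidine decarboxylase, went from 0.132 and 0.149 CPM to 2.01, 2.06 and 3.53 CPM. Csf3r, the receptor for the neutrophil growth factor G-CSF, went from 1.77 and 1.79 CPM to 15.9, 7.89 and 7.17 CPM (log2 2.54 ± 0.45). Trem1, an amplifying receptor of myeloid cells, rose by 4.11 ± 0.76. Without Ehmt2fl/fl mouse 3 the counts were 12 neutrophil genes and 18 macrophage and monocyte genes higher, with 1 of the latter lower.

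Lymphoid and stromal genes did not pass as groups. No gene passed among 17 of T and NK cells, 12 of the B lineage and 12 of dendritic cells and MHC class II, by edgeR or DESeq2, with 0, 0 and 1 at an unadjusted p under 0.05. Their medians were -0.84, -0.88 and -0.51, and -0.39, -0.34 and -0.14 without Ehmt2fl/fl mouse 3. Cd3e, of the T cell receptor complex, was at 6.89 and 4.32 CPM in Ehmt2+/+ and at 6.45, 4.47 and 0.0686 CPM in Ehmt2fl/fl. Ms4a1, the B cell antigen CD20, was at 59.1 and 11.4 CPM against 23.6, 23.3 and 0.103 CPM. The light chain gene Igkc was at 265 and 126 CPM against 231, 136 and 1.20 CPM. In all 3 genes mouse 3 alone was near 0 and the other 4 libraries overlapped. None of 15 endothelial genes passed by edgeR (median -0.35, 2 at an unadjusted p under 0.05, 1 higher and 1 lower by DESeq2). Their median was -0.12 without Ehmt2fl/fl mouse 3. Among 18 fibroblast and stellate cell genes, Pdpn (podoplanin) rose by 2.24 ± 0.44 and Lum (lumican) fell by 1.18 ± 0.21 on the log2 scale. The median of the 18 was -0.29, and -0.06 without Ehmt2fl/fl mouse 3. With Pdx1-Cre the endothelial and fibroblast medians were 0.02 and 0.33. Of 10 adipocyte genes 0 passed by edgeR and 5 were lower by DESeq2 (6 at an unadjusted p under 0.05, median -2.58). Adipoq, adiponectin, was at 1.90 and 13.9 CPM against 1.5, 1.05 and 0.480 CPM, and Cfd, adipsin, at 8.17 and 72.6 CPM against 7.55, 5.77 and 5.62 CPM. For both, Ehmt2+/+ mouse 2 was far above the other 4 libraries.

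Among the ligands of the infiltrate, 3 of 20 chemokines rose and 0 fell (median 1.47). Cxcl2, which attracts neutrophils, went from 0.221 and 0.149 CPM to 1.81, 1.24 and 1.82 CPM (log2 3.10 ± 0.45). The monocyte chemokines Ccl9 and Ccl12 rose by 2.94 ± 0.60 and 2.14 ± 0.45. Ccl6 was at 64.4 and 44.6 CPM against 211, 267 and 691 CPM (log2 2.84 ± 0.62), with an adjusted p of 0.107. Without Ehmt2fl/fl mouse 3, whose Ccl6 level was the highest, it passed (2.10, adjusted p = 0.00299), and 9 chemokines were higher and 1 lower. Of 16 genes of the interleukin-1 axis, 4 rose. The ligand Il1b went from 0.927 and 0.745 CPM to 4.32, 4.66 and 7.47 CPM (log2 2.70 ± 0.38). Its natural antagonists rose with it. Il1rn, the receptor antagonist, went from 8.39 and 6.50 CPM to 119, 78.1 and 123 CPM (log2 3.84 ± 0.32), and the decoy receptor Il1r2 rose by 3.24 ± 0.67. The signalling receptor Il1r1 was at 8.39 and 6.60 CPM against 9.10, 12.3 and 15.6 CPM, and 0.72 ± 0.30 did not pass (adjusted p = 0.338).

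Some ligands had no counts in Ehmt2+/+. Il1f9, an IL-36 cytokine of epithelium, and Il23a, the p19 subunit of interleukin 23, had 0 counts in both Ehmt2+/+ libraries and 82 and 93 counts in the Ehmt2fl/fl libraries. They were at least 11.4-fold and 12.9-fold higher against a floor of 3 counts over the group, and both passed. With 0 counts in Ehmt2+/+, both entered the test only through their level in Ehmt2fl/fl and could only come out as higher. Il23a was at 0.812, 0.697 and 1.27 CPM in the Ehmt2fl/fl mice, a level at which single reads weigh. Lif, a cytokine of the interleukin 6 family, went from 1.02 and 1.64 CPM to 4.78, 4.40 and 4.73 CPM (log2 1.81 ± 0.31). Tnf was at 1.37 and 0.745 CPM against 1.39, 0.887 and 2.02 CPM, where the groups overlapped (log2 0.43 ± 0.49, adjusted p = 0.737). Of 22 NF-kB and innate receptor genes 3 rose, Tlr13, Cd14 and Ripk3, and the median was 0.09. Tlr4, the lipopolysaccharide receptor, was at 6.62 and 4.22 CPM against 11.2, 12.4 and 27.2 CPM (log2 1.64 ± 0.49, adjusted p = 0.195). Of 12 EGF receptor family genes the ligands Nrg1 and Hbegf passed as higher. Hbegf went from 1.10 and 1.04 CPM to 4.04, 4.18 and 8.23 CPM (log2 2.35 ± 0.44). Nrg1 had 2 counts in Ehmt2+/+ and 84 in Ehmt2fl/fl, a ratio of 17.5 (95% exact counting interval 4.70 to 147). Nrg1 too entered the test through its level in Ehmt2fl/fl. Egfr was at 17.9 and 24.3 CPM against 36.5, 30.5 and 21.4 CPM and did not pass (log2 0.49 ± 0.29).

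Stress genes were read in the same way. The cells they came from were not tested, and the macrophage and neutrophil sums given above were higher in the same libraries. Of 20 AP-1 and immediate early genes 6 rose and 0 fell (median 1.03). Ier3, a survival gene induced by injury, went from 6.75 and 4.57 CPM to 34.9, 36.4 and 41.9 CPM (log2 2.73 ± 0.26). Atf3, a stress-induced repressor, rose by 2.04 ± 0.25, and Dusp6, a phosphatase of ERK, by 1.52 ± 0.22. No gene of the Fos and Jun families was among the 6. Junb was at 26.7 and 26.5 CPM against 50.1, 45.7 and 48 CPM, a log2 difference of 0.85 ± 0.17 (adjusted p = 0.0878) that was under the limit of 1, and Fosl1 had 1.59 ± 0.48 (adjusted p = 0.195). Of 16 integrated stress response genes 3 rose. Trib3, a pseudokinase induced by Atf4, went from 8.78 and 14.5 CPM to 58.2, 49.3 and 40.7 CPM (log2 2.09 ± 0.31), and Chac1, which degrades glutathione, rose by 1.49 ± 0.24. The transcription factor Cebpb rose by 1.69 ± 0.24. Atf4 itself had 0.97 ± 0.23 (adjusted p = 0.118).

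The unfolded protein response gave 1 gene in 22, with a median of 0.01. Over all genes 2.47% were higher and 0.895% lower, and a single call in a list is not read as a result about that list. Sel1l, of the machinery that clears misfolded proteins from the endoplasmic reticulum, fell from 330 and 530 CPM to 108, 115 and 93.7 CPM (log2 -2.02 ± 0.26). The chaperone Hspa5 was at 368 and 321 CPM against 654, 530 and 773 CPM (log2 0.92 ± 0.25, adjusted p = 0.164), and Xbp1 had -0.63 ± 0.24 (adjusted p = 0.298). Of 22 p53 targets 2 rose, the cyclin-dependent kinase inhibitor Cdkn1a (1.18 ± 0.25) and Phlda3 (1.11 ± 0.18). Gadd45a was at 1.85 and 2.13 CPM against 8.88, 7.38 and 3.98 CPM (log2 1.76 ± 0.41, adjusted p = 0.117). Of 20 cell cycle genes only Ccnd1, cyclin D1, rose (1.10 ± 0.22), and the median was -0.15. Of 24 interferon response genes 3 rose, among them Slfn4, a myeloid gene (2.62 ± 0.44), and Oas1a (1.89 ± 0.37). Of 18 imprinted genes Mest and H19 fell. Mest went from 31.6 and 38.1 CPM to 12.9, 10.6 and 13.0 CPM, and H19 from 5.83 and 5.41 CPM to 1.55, 1.17 and 2.02 CPM.

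Hepatic genes were detected at low counts. Cyp2d10, a liver cytochrome P450, passed with 2 counts in Ehmt2+/+ and 119 in Ehmt2fl/fl, a ratio of 24.8 (95% exact counting interval 6.72 to 207). Fibrinogen chains Fga and Fgg each had 1 count in Ehmt2+/+ and 288 and 179 in Ehmt2fl/fl, and neither passed (adjusted p = 0.102 and 0.149). Such intervals cover counting error only. Cyp2d10, Fga and Fgg entered the test through their level in Ehmt2fl/fl.

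The same contrast with the other driver shared no animal with these 5. Its values come from the fit of both drivers, and those of P48Cre/+ from its 5 libraries unless stated. With Pdx1-Cre, which is active in the whole pancreatic epithelium from early development, 604 of 14433 genes (4.18%) were higher and 415 (2.88%) lower in Ehmt2fl/fl. With that driver the 4 Ehmt2+/+ mice were all female, whereas both Ehmt2fl/fl animals were male, so sex and genotype cannot be told apart. Of 349 rises with P48Cre/+ that were in both tables, 258 also rose with Pdx1-Cre, which is 73.9% of the P48Cre/+ set and 42.7% of the Pdx1-Cre set. Of 131 falls 95 were shared, 72.5 and 22.9% of each set. No gene passed in opposite directions, and 348 of the 349 rises and all 131 falls had the same sign. Over all genes in both tables, 47% were positive and 53% negative with Pdx1-Cre. The median log2 difference of the P48Cre/+ rises was 2.11 with P48Cre/+ and 1.65 with Pdx1-Cre, and of the falls -1.76 and -1.55. The P48Cre/+ values of these sets are inflated by the choice of genes on that contrast.

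Some named genes were close in both drivers. Cldn18 had 8.16 ± 0.37 and 7.32, Bhlha15 -3.56 ± 0.39 and -3.19, and Prss3 3.96 ± 0.37 and 3.56. Nr5a2 had -1.63 ± 0.19 and -1.68. Others had estimates further apart, though none passed the edgeR interaction test described below. Mmp7 had 7.62 ± 0.81 and 5.52 (interaction, unadjusted p = 0.0307), S100a9 4.35 ± 0.56 and 2.25, and Malat1 -2.21 ± 0.39 and -0.97. Eno1b had -3.41 ± 0.28 and -1.59 ± 0.88, with an interaction of -1.81 ± 1.18 (unadjusted p = 0.156). Ptf1a, at -0.33 with P48Cre/+, had -0.91 with Pdx1-Cre (adjusted p = 0.0277), and the difference between the drivers had an unadjusted p of 0.0662. Of 31 digestive enzymes, 18 fell with Pdx1-Cre and 8 with P48Cre/+ in the fit of both drivers, where the P48Cre/+ libraries alone gave 2. The median was -1.59 with Pdx1-Cre and -0.65 with P48Cre/+ alone. Whether the driver changed the genotype difference was tested by the interaction term. No gene of 14433 passed it at an adjusted p under 0.1 by edgeR, 691 had an unadjusted p under 0.05, and DESeq2 called 2. The 5 genes with the lowest interaction p were Serpinb1c, Uts2, Alpl, Rasl10a and Brsk2. Brsk2 had -3.88 ± 0.34 with P48Cre/+ and -2.14 with Pdx1-Cre (interaction -1.73 ± 0.38, unadjusted p = 0.00103).

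**Figure D5:**
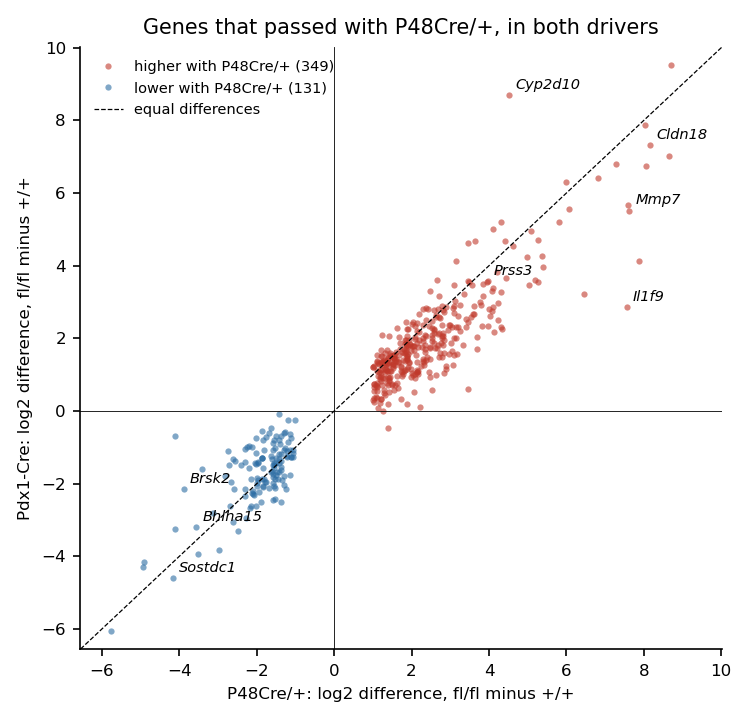
Log2 differences between Ehmt2fl/fl and Ehmt2+/+ after caerulein for the 480 genes that passed with P48Cre/+ and were in both tables, with P48Cre/+ on the horizontal and Pdx1-Cre on the vertical axis. Red points (349) were higher and blue points (131) lower with P48Cre/+, and the dashed line marks equal differences. One of the 349 red points lies below 0 on the vertical axis, and none of the blue points lies above it.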

How the data were processed

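Whole pancreas poly(A) RNA was sequenced from 5 P48Cre/+ and 6 Pdx1-Cre mice given caerulein. Per the labels and methods, the libraries were made with the TruSeq RNA v2 kit, reads were mapped to Gencode vM23 (GRCm38.p6), and the authors' processing notes name edgeR 3.28.1. The deposited values used are raw read counts per gene, not normalized, in 1 table per driver (14752 and 15144 genes, 14433 in both). The aligner settings and the use of strand in counting are not given in the sources used here, so antisense and overlapping genes are uncertain. Columns of the authors' own fold changes and p-values were not used. Every raw count column was mapped to a sample.

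Counts were filtered with filterByExpr (minimum count 10, total 15), scaled by TMM and tested with edgeR 4.0.16 (robust quasi-likelihood fit, R 4.3.3), with the P48Cre/+ libraries alone in the fit. Pdx1-Cre values and the interaction came from 1 fit over both drivers. Alternatives were a joint fit, RLE factors, no filter, factors without enzyme and mitochondrial genes, library totals, DESeq2 1.42.0, sex as a covariate, adjusted p under 0.05 and leaving out each library. Leaving out libraries in the joint fit, leaving out ribosomal RNA rows and totals without them were chosen after seeing the data. Named genes are the 12 largest rises and 12 largest falls that passed, with groups that did not overlap, a mean of at least 5 CPM over the 5 libraries and a gene symbol that is not a clone name, and up to 6 members of each list with the lowest adjusted p or a defining role, and the 5 lowest interaction p. Genes the study discusses were added, and other list members were named after their values were seen. The members and lists were chosen with earlier results of these data known. The scripts were tested on simulated data, in which the P48Cre/+ test made more false calls than its adjusted p threshold implies and the interaction test missed most of the smaller changes. Some genes are not reported here.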

Additional observations from a re-analysis of the deposited data

Results flagged for a closer look

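Of 125 genes checked, 4 had 1 of the 4 Pdx1-Cre Ehmt2+/+ caerulein libraries far from the others, measured by the gap to the nearest value as a share of the group's range. Chance gives such a gap in about 1 in 20 groups. Cldn18 was at 3.16 CPM in mouse 2, where the others were at 0.925 to 1.24 CPM. Hdc was at 3.42 CPM in the same mouse against 0.212 to 0.729 CPM, and Slfn4 at 10.1 CPM against 3.5 to 4.01 CPM. Atf4 was lowest in mouse 4, at 67.3 CPM against 85.8 to 87.9 CPM. The P48Cre/+ groups, with 2 and 3 animals, are too small for this check.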

How the results depend on the processing

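The count of genes that passed with P48Cre/+ (497) was 0 to 1023 when each library was left out, and 85 to 881 in the joint fit (844 with all libraries, and 863, 819, 779 and 881 without Pdx1-Cre Ehmt2+/+ mouse 1, 2, 3 and 4). It was 1020 by DESeq2, 67 at an adjusted p under 0.05, 0 with sex as a covariate, 4619 on library totals and 1585 on totals without ribosomal RNA rows. The 1023 genes without Ehmt2fl/fl mouse 3 held 485 of the 497. RLE factors, no filter, factors without enzyme and mitochondrial genes and removal of ribosomal RNA rows gave 469, 497, 501 and 488. With Pdx1-Cre the count (1019) was 4881 on library totals and 168 to 1201 when each library was left out. The interaction had 0 genes, and 2 by DESeq2. All 497 genes that passed kept their direction in every fit that tested them. Their choice on the same P48Cre/+ libraries made this likely beforehand.

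On library totals, which moved the median of all genes to 0.82, the log2 difference turned to 0.48 for Ehmt2, 0.52 for Ehmt1, 0.47 for Ptf1a, 0.15 for Xbp1, 0.20 for Igkc, 0.26 for Cd3e, 0.44 for Alpl and 0.69 for Rasl10a. On totals without ribosomal RNA rows (median 0.46) it was 0.12 for Ehmt2 and Ptf1a, 0.17 for Ehmt1, 0.09 for Alpl and 0.34 for Rasl10a. Krt19, at 0.00, was -0.04 by RLE factors and by DESeq2, and -0.13, -0.07 and -0.04 without Ehmt2+/+ mouse 1, Ehmt2fl/fl mouse 1 and mouse 2 (-0.12, -0.07 and -0.03 in the joint fit). Ms4a1 ranged from -1.91 without Ehmt2+/+ mouse 2 to 0.47 without mouse 1, and Rasl10a from -0.24 without mouse 1 to 0.05 without mouse 2. The causes were not tested.

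No paired analysis was possible because the labels give the animals numbers that the groups do not share. With 2 Ehmt2+/+ animals, few degrees of freedom remain, and a p that misses the threshold does not show that a gene did not differ.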
